A study of Mus musculus with 4 samples.

Results

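The genes described here build the primary cilium or carry the Hedgehog signal that passes through it. They were chosen by symbol: every probe set that the platform annotation assigns to 1 of 35 genes of intraflagellar transport, the BBSome, the ciliary motors, the transition zone or the Hedgehog pathway. Of these, 33 genes were found, on 60 of the 45101 probe sets, among 18193 named genes. Arl6 and Arl13b were not analysed here. The samples were muscle satellite cells, the stem cells of skeletal muscle, sorted as YFP-positive cells without culture from mice aged 10 weeks, 2 weeks after tamoxifen. Calcr-cKO cells (2 arrays) came from Pax7-CreERT2 mice with Calcr flox/flox alleles and the Rosa-YFP reporter, and control cells (2 arrays) from mice with the same Cre and reporter but Calcr +/+. All mice received tamoxifen, and Cre from the Pax7 locus acts in satellite cells. The titles name biological replicates; the number of mice behind an array is not given. The p-values then measure only the spread between these samples.

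The primary cilium is a single antenna on a microtubule core. Kinesin-2 carries trains of IFT-B proteins to the tip, cytoplasmic dynein 2 and IFT-A proteins return them, and the BBSome is a coat that moves membrane proteins along the cilium. Hedgehog ligand relieves Smo, a receptor-like membrane protein, from its inhibitor Ptch1, and Smo then acts in the cilium on Sufu and the Gli transcription factors. Quiescent satellite cells carry a primary cilium, and protein kinase A, which cAMP activates, phosphorylates Gli2 and Gli3. The calcitonin receptor, the product of Calcr, can raise cAMP. The comparison asks whether transcripts of these genes differ between cells that lost Calcr and control cells.

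Promoter stretches are shown for genes named below, to place letters of known regulatory motifs beside the values. Sequences are from RefSeq (build GRCm38.p6), which held a promoter for 31 of the 35 genes. Each window of 300 bases covers 250 before and 50 after the start, and both strands were searched. A printed stretch holds a match with flanking bases, taken from the 250 bases before the start. Of those shown, only the Ift172 stretch reaches the start. The X-box is the motif bound by RFX factors, regulators of cilium genes. It was found in the windows of 2 of 31 members (6.45%), Ift57 and Bbs1, against 1.75% of all 27025 genes. The upstream part of Ift57 held a pair of matches, in capitals (chr16:49699177-49699276, plus strand).
Ift57 X-box: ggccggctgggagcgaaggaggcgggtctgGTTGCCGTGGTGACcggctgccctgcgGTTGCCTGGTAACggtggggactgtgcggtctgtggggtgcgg
The cAMP response element TGACGTCA was found in 1 of 31 members, Ift57, and in Hhip among 14 other Hedgehog genes with a promoter, against 2.03% of all genes. It is in capitals in the next stretches, chr16:49699102-49699169 (plus strand) and chr8:80058046-80058113 (minus strand).
Ift57 CRE: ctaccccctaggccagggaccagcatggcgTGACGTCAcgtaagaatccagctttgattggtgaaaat
Hhip CRE: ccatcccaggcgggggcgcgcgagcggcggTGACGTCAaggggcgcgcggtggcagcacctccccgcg
The core letters TGACG, which also lie inside TGACGTCA, were in 11 of 31 members (35.5%) and in 23.0% of all genes. Bbs5 and Ift140, which read higher in cKO cells, and Ift172 and Kif3b, which read lower, all held the core, so it was on both sides. The other members whose arrays did not overlap between genotypes were not among the 11. These were Ift22, Bbs2, Kif3a and Dync2h1, higher in cKO, and Ift80 and Ttc8, lower. Ift140 and Ift172 held the core more than once, and a single stretch is shown for each. The core is in capitals at chr2:69647093-69647157 (plus), chr17:25015943-25016007 (plus), chr5:31291115-31291163 (minus) and chr2:153291336-153291400 (plus).
Bbs5: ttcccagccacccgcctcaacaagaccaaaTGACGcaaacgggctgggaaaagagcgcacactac
Ift140: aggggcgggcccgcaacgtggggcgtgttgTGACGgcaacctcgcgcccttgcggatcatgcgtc
Ift172: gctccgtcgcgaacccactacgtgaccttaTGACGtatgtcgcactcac
Kif3b: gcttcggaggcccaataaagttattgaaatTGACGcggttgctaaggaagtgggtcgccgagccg
The Gli site GACCACCCA was in 0 of 31 members and in 0.289% of all genes. These matches are letters in a window and were not tested for binding.

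Calcr, the targeted gene, read 568 and 684 in cKO cells and 1268 and 1424 in control cells, so the groups did not overlap. Its log2 difference was -1.11 (SE 0.25, limma, adjusted p = 0.99999). Whether its probe set reads the deleted exons is not given. Satellite cell markers were present on every array, with Pax7 at 2170 and 2434 in cKO and 2319 and 3647 in control. Of 11 such markers, Calcr included, 10 read lower in cKO, and they summed to 21558 and 24022 in cKO, against 22128 and 30481 in control. The arrays differed by replicate number in transcripts of other cells. All 12 endothelial markers were higher on both arrays numbered 1 than on both numbered 2. Their summed signal was 7718 and 1305 on cKO arrays 1 and 2, and 8397 and 1112 on control arrays 1 and 2; none was at 0. Summed pericyte and smooth muscle markers read 19230 and 8841 in cKO, against 17014 and 11077 in control. Of these 10 markers, 8 were higher on both arrays numbered 1 than on both numbered 2. The bright genes in the sum differed in this: Rgs5 read 4828 and 649 in cKO and 5200 and 442 in control. Acta2 read 4947 and 3562 in cKO and 4288 and 4190 in control. Leukocyte markers summed to 1342 and 460 in cKO, against 1052 and 1926 in control. Fibro-adipogenic markers, 8 of 9 measured, summed to 18827 and 20452 in cKO and 18729 and 22372 in control. Muscle fibre markers summed to 1437 and 2212 in cKO, against 2876 and 1264 in control, and Schwann cell markers to 1532 and 209, against 1504 and 453. In such bulk samples, fewer cells of a type and less RNA per cell cannot be told apart.

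Across the cilium and Hedgehog genes no transcript passed the test between genotypes, and members read both higher and lower. Of the 33 genes, 26 had a probe set above the filter (a mean signal of at least 63.9), and the brightest represents the gene. Limma's moderated test with Benjamini-Hochberg adjustment over 22519 probe sets called 0 of 38 member probe sets, with every adjusted p at 0.99999. It called 0% of all probe sets. At an unadjusted limma p under 0.05 there were 0 of 26 member genes, against 0.72% of 10140 genes. That share is smaller than the threshold itself, so a count of 0 does not show that the genotypes had equal levels. Members were higher in cKO for 14 genes and lower for 12, with a median log2 difference of 0.08, against -0.04 over all genes, 42.7% of which were higher. Standard errors of the members ran from 0.29 to 0.47 on the log2 scale, and every 95% interval of a difference included 0.

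In 6 members both cKO arrays lay above both control arrays (23.1% of 26, against 8.53% of all genes), namely Ift22, Ift140, Bbs2, Bbs5, Kif3a and Dync2h1. In 4 members both lay below (15.4%, against 12.1%), namely Ift172, Ift80, Ttc8 and Kif3b. The split depended on the scaling. After quantile normalization it was 6 higher and 3 lower (11.7% and 9.38% of all genes), and median centring of the arrays gave 7 and 2 (12.0% and 7.15%). Ift22, Bbs2, Bbs5, Kif3a and Dync2h1 on the higher side, and Ift172 and Kif3b on the lower, kept their place under both scalings. Ift140 and Ift80 left the count under both and Ttc8 under median centring, while Gli3 joined the higher side under both and Ift122 under median centring. At least 1.5-fold apart without overlap were Ift22 and Bbs5 on the higher side, against 1.21% of all genes, and Ttc8 on the lower, against 2.39%.

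**Figure D1:**
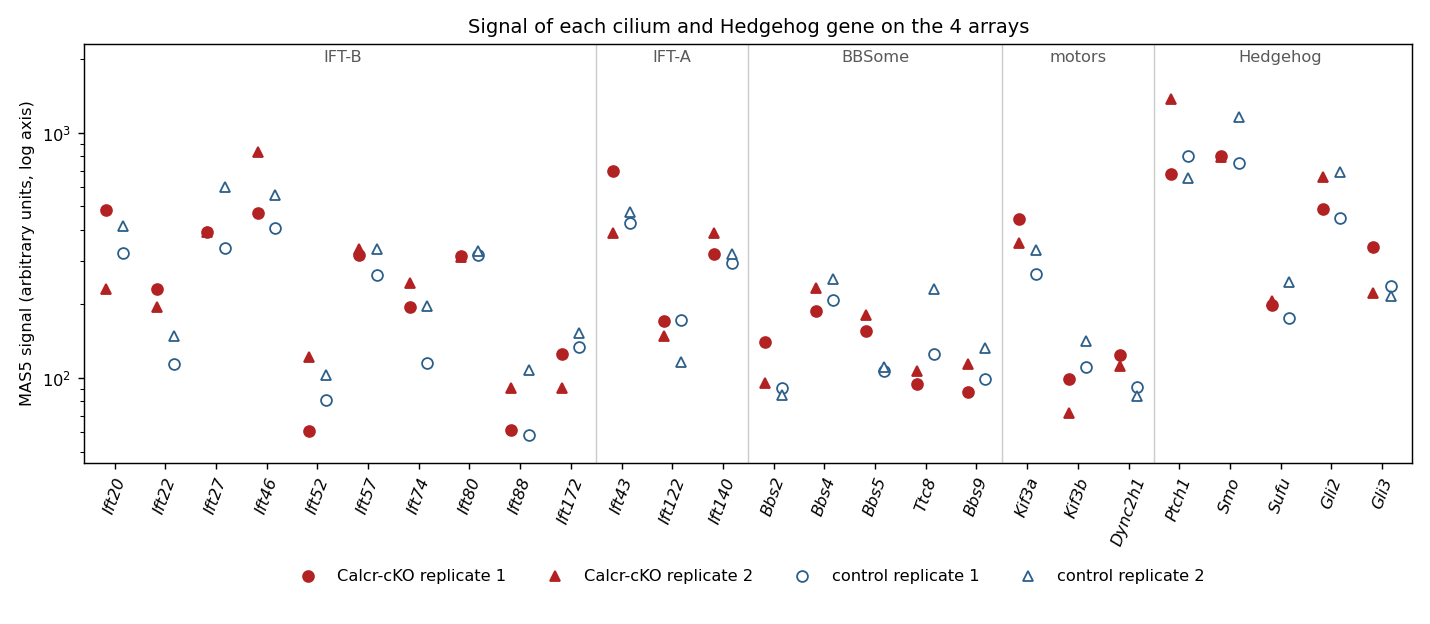
MAS5 signal (log axis, arbitrary units) of the 26 genes above the filter, by role; filled red symbols are the 2 cKO arrays and open blue symbols the 2 control arrays, circles replicate 1 and triangles replicate 2. Signals of different genes come from different probe sets and cannot be ranked against each other; for Ift22, Bbs5 and Dync2h1 the red symbols lie above the blue, and for Ttc8 and Kif3b below.

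The IFT-B genes, which encode the anterograde train, did not differ in a common direction: 4 of 10 measured genes were higher and 6 lower, with a median log2 difference of -0.07. Ift22, a small GTPase-like subunit, read 230 and 195 in cKO cells and 114 and 148 in control cells. It had the smallest p of the members, with a log2 difference of 0.69 (SE 0.36, 95% interval -0.14 to 1.53, limma, adjusted p = 0.99999). Both cKO arrays were above both control arrays, and the difference was 1.0 between the arrays numbered 1 and 0.39 between those numbered 2. Leaving out each array in turn gave 0.51 to 0.88. Ift74, which binds tubulin together with Ift81, read 194 and 244 in cKO cells, against 115 and 195 in control cells. The lower cKO array was just below the higher control array, so the groups overlapped (log2 difference 0.54, SE 0.40). Ift46, a core subunit, read 469 and 833 in cKO and 408 and 558 in control, and also overlapped.

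Ift172, a large peripheral subunit, was the lowest of the group in difference. It read 125 and 90.4 in cKO cells and 133 and 152 in control cells, with a log2 difference of -0.42 (SE 0.38, 95% interval -1.30 to 0.47). The groups did not overlap, and most of the gap lay in the pair numbered 2: the difference was -0.09 between the arrays numbered 1 and -0.75 between those numbered 2. Without cKO replicate 2 it was -0.19, and without cKO replicate 1 it was -0.65. Ift80 read 313 and 312 in cKO, against 317 and 328 in control. That gap amounts to -0.05 on the log2 scale, and its sign turned after quantile normalization (0.01) and median centring (0.05). The train subunits Ift52 and Ift88 lay at -0.09 each, the first turning above 0 with median centring and the second with quantile normalization. Ift20, which links the train to the Golgi, read 482 and 231 in cKO against 323 and 416 in control, so the cKO arrays spanned the control arrays. Ift27, a GTPase of the train, read 392 and 392 in cKO and 339 and 603 in control, and all 3 of its kept probe sets had a negative difference. Ift57, whose promoter is shown above, read 316 and 334 in cKO, against 263 and 335 in control (log2 difference 0.13). Ift81 was below the filter, at 53.9 and 72.4 in cKO and 31.3 and 110 in control on its brightest probe set.

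The IFT-A genes encode the retrograde train, and on the brightest probe set all 3 had a positive difference, from 0.16 to 0.21. Ift140 read 318.5 and 388.7 in cKO cells, against 294.1 and 318.3 in control cells. The lower cKO array exceeded the higher control array by less than 1 unit, so this lack of overlap is marginal, and the log2 difference of 0.20 (SE 0.32) was 0.06 without cKO replicate 2. Ift43 read 700 and 390 in cKO and 427 and 475 in control, with the highest and the lowest value both in cKO. Ift122 read 170 and 147 in cKO, against 172 and 116 in control. Its dimmer probe set, below the filter and not tested, had the opposite sign. It read 16.1 and 30.2 in cKO, against 45.2 and 48.3 in control.

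The BBSome subunits held differences of at least 1.5-fold without overlap in both directions, Bbs5 higher and Ttc8 lower. Bbs5, the subunit that binds phosphoinositide lipids, read 156 and 181 in cKO cells and 107 and 111 in control cells. Its log2 difference was 0.62 (SE 0.35, 95% interval -0.21 to 1.45), and the values were close within numbers, at 0.54 and 0.70. Leaving out each array in turn gave 0.51 to 0.73. Bbs2, also a BBSome subunit, read 140 and 95.1 in cKO, against 90.4 and 84.9 in control (log2 difference 0.40, SE 0.40). Without cKO replicate 1 it was 0.12, and without cKO replicate 2 it was 0.68. Ttc8, the subunit also known as Bbs8, went the other way, with 94.0 and 106 in cKO cells and 125 and 231 in control cells. Its log2 difference was -0.76 (SE 0.42, 95% interval -1.75 to 0.23). The high value of control replicate 2 set its size: without that array the difference was -0.32, and without control replicate 1 it was -1.20.

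Bbs4 and Bbs9, the remaining subunits above the filter, were at -0.14 and -0.19, with overlapping arrays. The other kept probe set of Bbs4 was at 0.02. Subunits Bbs1 and Bbs7 and the chaperonin-like assembly genes Bbs10 and Bbs12 were below the filter. Bbs1, which binds Arl6 at the membrane, read 22.7 and 34.1 in cKO, against 37.1 and 70.2 in control. At such signals a fold is uncertain, and no test was made.

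The ciliary motor genes split between the subunits of 1 motor. Kif3a and Kif3b encode the motor subunits of heterotrimeric kinesin-2. Kif3a read 443 and 354 in cKO cells, against 266 and 333 in control cells, on its brightest probe set (log2 difference 0.41, SE 0.33). Its 4 kept probe sets did not share a sign: the others were at 0.39, -0.06 and -0.28, and averaged over probe sets Kif3a no longer separated the genotypes. Without cKO replicate 1, and likewise without control replicate 1, its brightest probe set was at 0.25. Kif3b read 99.1 and 71.6 in cKO cells and 110 and 141 in control cells (log2 difference -0.56, SE 0.40, 95% interval -1.49 to 0.37). Most of that lay between the arrays numbered 2 (-0.97), against -0.15 between those numbered 1, and without cKO replicate 2 the difference was -0.33. Its dimmer probe sets, all below the filter, were at -0.13, -0.87 and -0.54. Dync2h1, the heavy chain of the retrograde motor dynein 2, read 124 and 111 in cKO and 91.4 and 84.1 in control. Its log2 difference of 0.42 (SE 0.37, 95% interval -0.45 to 1.29) was nearly equal within both numbers, at 0.44 and 0.40. The transition zone genes Cep290 and Tmem67, which gate the cilium base, were below the filter. Cep290 read 57.4 and 64.5 in cKO, against 47.3 and 51.2 in control, and Tmem67 read 80.4 and 34.6, against 57.2 and 74.4.

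**Figure D2:**
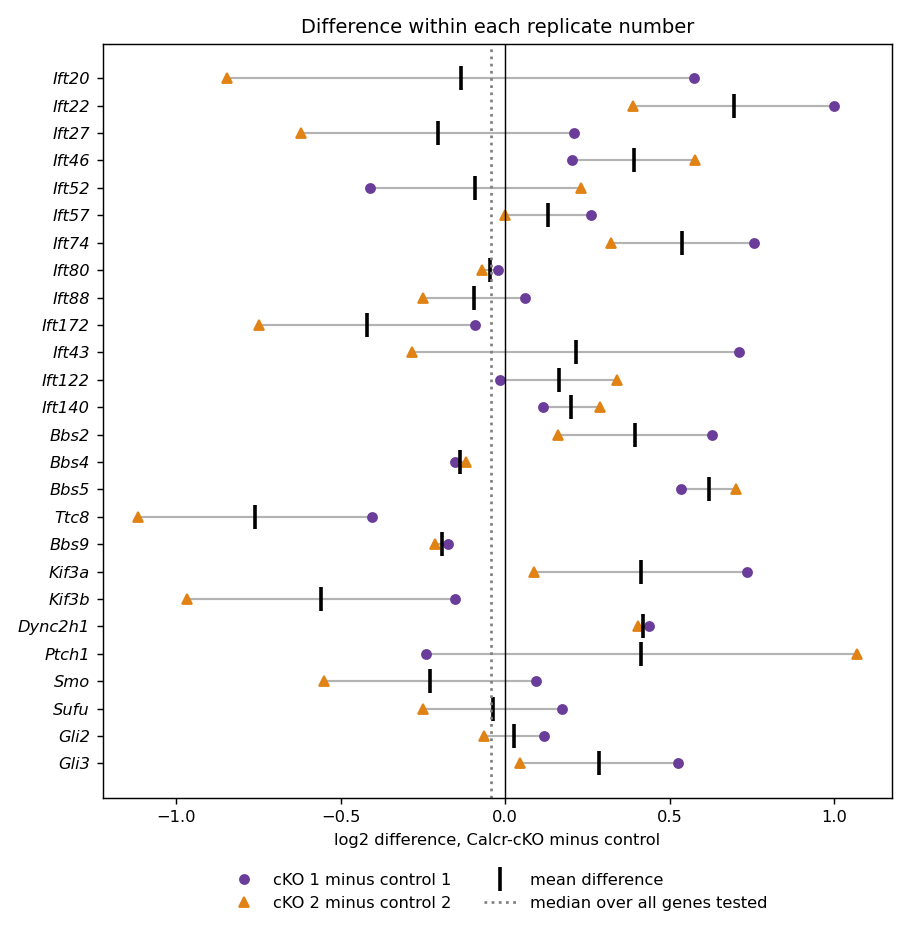
The log2 difference of cKO minus control for each of the 26 genes, between the arrays numbered 1 (circles) and numbered 2 (triangles), with the mean as a bar; the dotted line is the median of all genes tested, -0.04. Bbs5 and Dync2h1 have both symbols close together to the right of 0, while Ptch1 lies at -0.24 and 1.07 and Ift20 at 0.58 and -0.85.

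Differences within the replicate numbers show how much of each value rests on 1 pair. In the pair numbered 1, 17 of 26 members read higher in cKO, with a median of 0.15. The median of all genes was 0.09 there. In the pair numbered 2, 12 did so, with a median of -0.03, against -0.19 over all genes. In 9 members the difference was positive in both pairs and in 6 it was negative in both. The median over members turned below 0 without cKO replicate 2 (-0.03) and without control replicate 1 (-0.06). A split by replicate number itself was common among all genes, and among the members it lay mostly toward the arrays numbered 2. Higher on both arrays numbered 2 were 9 of 26 members, among them Ift74, Gli2 and Sufu, against 22.4% of all genes. Higher on both arrays numbered 1 were 2 of 26, Ift122 and Gli3, against 21.0% of all genes. Of 18 other Hedgehog genes above the filter, 9 were higher on both arrays numbered 2 and 2 on both numbered 1. Of 12 other IFT and motor genes these counts were 9 and 0, and of 5 cilium disassembly genes 0 and 3. The endothelial markers above were higher on the arrays numbered 1, opposite to these 9 members, and their part in these values was not tested.

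Of the 5 Hedgehog members, none separated the genotypes on the deposited scale, though Gli3 did after quantile normalization and median centring. The largest difference among them was in Ptch1, the receptor that is also a target of the pathway. Ptch1 read 680 and 1374 in cKO cells, against 804 and 655 in control cells. Only cKO replicate 2 stood above the control arrays, and cKO replicate 1 lay between them. Its log2 difference was 0.41 (SE 0.37, 95% interval -0.45 to 1.28), at -0.24 between the arrays numbered 1 and 1.07 between those numbered 2. Without cKO replicate 2 it was -0.09, and without cKO replicate 1 it was 0.92. The other kept probe set of Ptch1 gave the same picture, with 58.9 and 138 in cKO, against 72.1 and 41.1 in control.

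Hhip and Gli1, other known targets of the pathway, were read beside Ptch1. Hhip, which binds Hedgehog ligand outside the cell, read 111 and 212 in cKO and 108 and 104 in control on its brightest probe set (log2 difference 0.53, SE 0.43). Both cKO arrays were above both control arrays, the first by little, and without cKO replicate 2 the difference was 0.07. Its other kept probe sets, at 0.02 and 0.27, overlapped but were likewise brightest on cKO replicate 2. Gli1, the activator that the pathway induces, read 134 and 150 in cKO, against 135 and 96.7 in control (log2 difference 0.31, SE 0.38, and 0.06 without control replicate 2). Thus Ptch1, Hhip and Gli1 were all brightest on cKO replicate 2, as were 17.5% of all genes. The shared array was seen after the values were known. Of the 6 fibro-adipogenic markers above the filter, 2, Dcn and Lum, were also brightest there. The others were not, and Dpt and Smoc2 were dimmest on that array. Below the filter, Pdgfra was brightest on cKO replicate 2 on all its probe sets, and Pi16 was not. The brightest Pdgfra probe set read 50.9 and 58.2 in cKO, against 40.8 and 36.0 in control. Dcn read 2313 and 3848 in cKO, against 2935 and 2432 in control, and Lum 199 and 406, against 298 and 244. The part of such cells in the Ptch1, Hhip and Gli1 values was not tested.

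**Figure D3:**
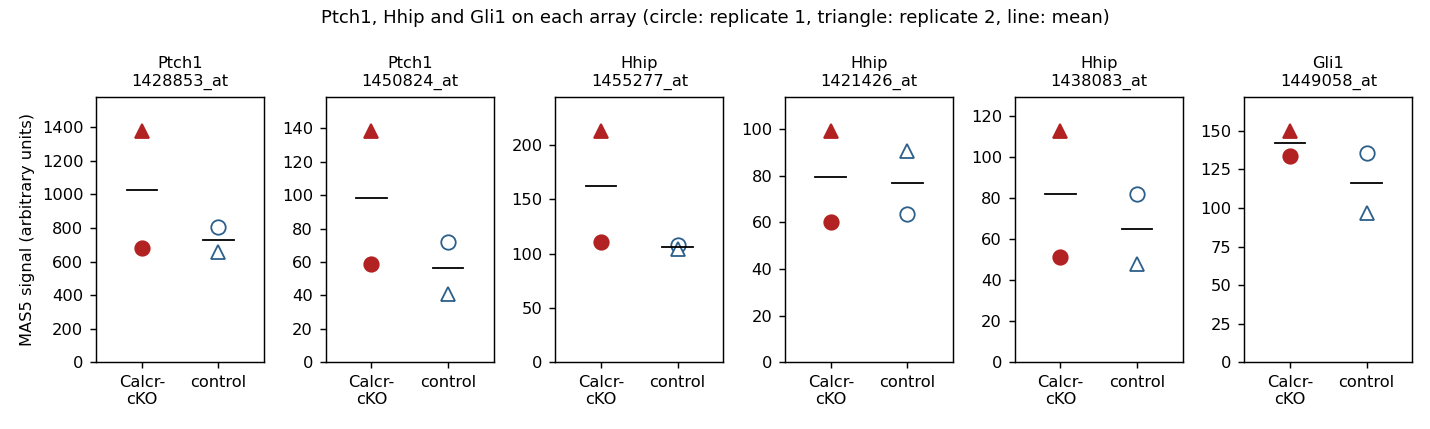
MAS5 signal (linear axis from 0, arbitrary units) on each array for every kept probe set of Ptch1, Hhip and Gli1; red, cKO, and blue, control, with the mean of the 2 arrays as a line. The triangle of cKO replicate 2 is the highest symbol in every panel, while cKO replicate 1 lies within or near the control range.

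The signal transducers overlapped between genotypes on every kept probe set on the deposited scale. Smo read 804 and 794 in cKO cells and 754 and 1164 in control cells, with a log2 difference of -0.23 (SE 0.29). Its other kept probe set had the opposite sign, at 0.19. Gli2, the main activator of the response, read 487 and 661 in cKO, against 448 and 691 in control, and differed by 0.03 (SE 0.34). Here the arrays of 1 number resembled each other more than those of 1 genotype. Gli3, the main repressor, read 340 and 222 in cKO, against 236 and 215 in control, a log2 difference of 0.29 on its brightest probe set. The other kept probe sets of Gli3 were at -0.01 and -0.40, and the mean over all 3 turned below 0. The brightest separated the genotypes, cKO higher, after quantile normalization (0.35) and median centring (0.38), and without cKO replicate 1 it was at -0.02. Sufu, which holds Gli proteins inactive, read 199 and 206 in cKO and 176 and 246 in control. Its difference was -0.04 on both kept probe sets, and on the brightest it turned above 0 with quantile normalization (0.03) and median centring (0.05).

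**Figure D4:**
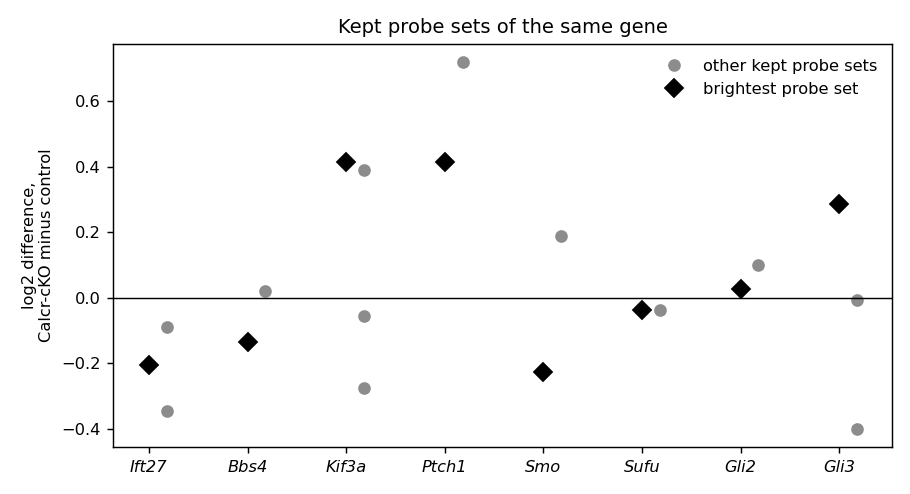
The log2 difference of cKO minus control for the 8 members with several kept probe sets; diamonds are the brightest probe set and grey circles the others. In 4 genes (Ift27, Ptch1, Sufu, Gli2) the probe sets share a sign, and in 4 (Bbs4, Kif3a, Smo, Gli3) they lie on both sides of 0.

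Other genes of the pathways gave 0 calls too. Of 18 other Hedgehog genes above the filter, 8 were higher and 10 lower (median log2 difference -0.05), and arrays did not overlap in 1 higher (5.56%, against 8.53% of all genes) and 3 lower (16.7%, against 12.1%). The lower ones were the co-receptor Cdon, the Gli kinase Csnk1a1, and Evc, which acts with Smo at the cilium base. Cdon read 1786 and 1818 in cKO, against 1914 and 2163 in control (log2 difference -0.18). Csnk1a1 read 3071 and 3326, against 3527 and 3765 (log2 difference -0.19), and Evc 92.5 and 89.7, against 95.6 and 171 (-0.49). Control replicate 2 decided the value of Evc, which was -0.07 without it and -0.90 without control replicate 1, and Cdon was at -0.09 without control replicate 2. The ligand genes Shh and Ihh were below the filter. The ligand gene Dhh was above it and overlapped, at 117 and 66.0 in cKO, against 160 and 44.5 in control (log2 difference 0.05). Both arrays numbered 1 read higher for Dhh than both numbered 2.

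Of 12 other IFT and motor genes, 4 were higher and 8 lower, with a median of -0.21. Kifap3, the accessory subunit of kinesin-2, read 413 and 358 in cKO and 491 and 449 in control (log2 difference -0.29). Its other kept probe set went the other way, also without overlap, with 459 and 403 in cKO and 353 and 279 in control. Kif17, a second kinesin of cilia, read 69.1 and 73.2, against 95.6 and 86.9 (log2 difference -0.35). Of 24 other transition zone and basal body genes, 10 were higher and 14 lower (median -0.06). Ccp110, which caps centrioles and blocks cilium growth, read 305 and 353 in cKO, against 215 and 242 in control (log2 difference 0.52, SE 0.32). Tmem216, of the transition zone, read 73.9 and 123 in cKO and 55.5 and 66.8 in control (0.64). Rab3ip, the exchange factor for Rab8, read 106 and 66.4, against 131 and 123 (-0.59), and B9d2, of the transition zone, 88.6 and 111, against 150 and 132 (-0.50). Without cKO replicate 2, Tmem216 was at 0.28 and Rab3ip at -0.26. Without overlap were 3 higher and 3 lower of the 24 (12.5% each), and 0 higher and 2 lower (16.7%) of the 12 IFT and motor genes. Of all genes, 8.53% were higher and 12.1% lower without overlap.

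Among genes of cilium disassembly, Aurka and Hdac6 had log2 differences larger than most members and of opposite sign. Of 5 such genes above the filter, 1 was higher and 1 lower without overlap (20% each). The shares of all genes were 8.53% and 12.1%. Aurka, the mitotic kinase that also triggers resorption of the cilium, read 118 and 137 in cKO cells, against 67.8 and 82.6 in control cells. Its log2 difference was 0.76 (SE 0.38, limma, adjusted p = 0.99999). Hdac6, the tubulin deacetylase that acts with it, read 200 and 185 in cKO, against 351 and 278 in control (log2 difference -0.69, SE 0.33, limma, adjusted p = 0.99999). Kif2a, Kif24 and Nek2 overlapped, at -0.30, -0.07 and 0.02 on their brightest probe sets. Plk1, below the filter and not tested, read 55.1 and 75.1 in cKO, against 39.0 and 24.7 in control. The RFX transcription factor genes differed little, from -0.15 to 0.00, and Rfx7 read 477 and 489 in cKO, against 541 and 520 in control (log2 difference -0.13). Motile cilium genes were mostly dim: 7 of 9 were below the filter on every array.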

How the data were processed

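RNA of 4 samples was hybridised to 1 array each after small sample biotin labelling, per the labels. The authors made a MAS5 signal intensity for every probe set, on a linear scale, per the submitters' processing notes. The MAS5 scaling target is not given; median signals were 68.8 and 57.8 on cKO arrays and 70.4 and 64.3 on control arrays, so overall brightness was not equal. The number of arrays limits the precision.

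Values were analysed as log2(signal + 1). Of 45101 probe sets, 64 controls were left out; 34945 had 1 gene symbol, 932 several and 9160 none. Kept were 22519 with a mean log2 value at or above the median. Groups were compared with limma 3.58.1 in R 4.3.3 (lmFit, eBayes with an intensity trend; 2 residual and 5.32 prior degrees of freedom), adjusted by Benjamini-Hochberg; p-values are 2-sided. The added 1 makes fold changes smaller at low signals. An exact permutation test cannot go below p = 0.333. "Without overlap" means that both cKO arrays lie on the same side of both control arrays. The steps were tested on simulated data with a smaller spread than the real arrays and no differences by replicate number. That test checks the steps and does not show what would be recovered at the real spread. The members and lists were chosen with earlier results of these data known. All members were accounted for, those without overlap and the Hedgehog genes in full, with up to 4 genes without overlap per further list, the largest differences first. From the Hedgehog list Gli1 and Hhip were named as pathway targets. Promoter motifs were searched as letters. Alternatives were scaling, pseudocount, filter, trend, replicate block, probe set choice and leaving out arrays; the arrays of each number alone were added after seeing the data.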

Additional observations from a re-analysis of the deposited data

How the results depend on the processing

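No member probe set was called under any of the alternatives run, whether scaling, pseudocount, filter, trend, replicate block, probe set choice or leaving out 1 array. Over all probe sets, 0 passed an adjusted limma p of 0.05, 163 passed unadjusted, 5 passed with a replicate block, and leaving out arrays gave 0 to 5. Same-numbered arrays deviated together (correlation 0.43 across probe sets, 2 pairs), but the labels give the numbers no shared origin. Each number holds 1 array per genotype, so a replicate block cannot change a log2 difference, and the members' median of 0.08 was fixed in advance. The block can change p-values: 473 probe sets passed an unadjusted limma p under 0.05 with it, against 163 without. The members' median also varied between settings. That median was -0.04 without a filter, 0.14 with quantile normalization and 0.17 with median centring, and -0.06 to 0.24 when arrays were left out. The arrays numbered 1 alone gave 0.15 and those numbered 2 alone -0.03. Members without overlap were 6 higher and 4 lower. With the filter at the 75th percentile, which left 12 genes, they were 2 and 1 (8.41% and 11% of all genes); with median centring 7 and 2; with unsuffixed probe sets 5 and 2 (8.62% and 12.2%). Leaving out an array, which makes overlap rarer by construction and assumes that the lone sample varies like the other group, gave 9 to 14 higher (14 without control replicate 2, 10 without cKO replicate 1) and 5 to 12 lower (12 without control replicate 1, 7 without cKO replicate 2), while 20% to 35% of all genes were then higher and 24.6% to 44% lower, 44% without control replicate 1. Calcr stayed lower, at -1.24 to -0.97. Of 490 recomputed values of 40 named genes, 28 changed sign.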
